A study of Mus musculus with 12 samples.

Results

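The genes described here code for the subunits, activators, inhibitor and assembly factors of the proteasome in mouse blood neutrophils. They were taken as every named gene of the deposited table whose symbol begins with Psma, Psmb, Psmc, Psmd, Psme, Psmf or Psmg followed by a digit, with pseudogenes left out. This gave 47 of the 11494 genes listed. By role they were 7 alpha subunits of the 20S core, 7 constitutive beta subunits, 3 immunoproteasome beta subunits, 6 ATPases and 11 non-ATPase subunits of the 19S cap, 6 activators or inhibitors and 6 assembly chaperones. The remaining gene, Psmc3ip, matched by name only and codes for a factor of meiotic recombination, not for a proteasome subunit. GENCODE vM21 lists 50 protein-coding genes with such names, and Psma8, Psmb11 and Psmg2 were not analysed here.

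RNA-seq libraries came from 12 samples of sorted neutrophils, 6 labelled Control and 6 labelled LOY, for loss of the Y chromosome. Both groups are labelled BMT (bone marrow transplantation) and carry the same treatment label, Control, so that the genotype label alone separates them. For each library 10000 Ly6G+, CD115-, RFP+ cells were sorted from lysed blood, so the gate was set on cells that carried the red fluorescent marker. cDNA was made with SMART-Seq v4 from total RNA and libraries with Nextera XT, which does not mark strand. Neither age nor the means of Y chromosome loss is stated in the labels. Nor do they say that each library is a different mouse, and p-values therefore measure the spread between libraries, which may be technical.

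The 20S core is a barrel of stacked rings in which alpha subunits form the gate and beta subunits line the chamber where proteins are cut. The constitutive core cuts with Psmb5 (chymotrypsin-like site), Psmb6 (caspase-like site) and Psmb7 (trypsin-like site). Cells of the immune system, and other cells under interferon, build cores in which Psmb8 takes the place of Psmb5, Psmb9 that of Psmb6 and Psmb10 that of Psmb7. Such immunoproteasomes are known for making peptides suited to MHC class I molecules. The 19S cap binds ubiquitin-tagged proteins, removes the tag and unfolds them with its ring of ATPases, while other activators open the gate without ubiquitin.

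Deposited values are gene read counts divided by a size factor for each library, called normalized reads below. Recovered reads per library ranged from 13743581 to 18459792 in Control and from 17097739 to 19616066 in LOY. Control 1, 2 and 12 stood apart: 20.5%, 21.7% and 17.3% of listed genes were at 0 there, where Control 6, 17 and 18 had 9.33% to 11.1% and LOY libraries 6.59% to 11.6%. The Y-linked gene Ddx3y lay between 650.4 and 1348 normalized reads in Control and between 0 and 366.5 in LOY. The highest LOY value was that of LOY 4, which also had 985.6 normalized reads of Eif2s3y, against at most 74.6 in the other LOY libraries. All 8 neutrophil markers were detected, and their summed values spanned 1233460 to 2266460 in Control and 1239660 to 1854990 in LOY. Their log2 differences were positive for 2 and negative for 6. Of the erythroid list, 5 of 5 genes had positive log2 differences, where 60.9% of all tested genes did. Their summed values spanned 72357 to 142209 in Control and 93320 to 625617 in LOY. The top of that LOY span was LOY 15 alone: Hba-a1 was 244166 there and 85766 in LOY 10, the next highest LOY library. Summed lymphocyte markers lay between 106.5 and 1236 and platelet markers between 417.3 and 1401 over all libraries, with Ms4a1 and Cd79b at 0 in Control 1 and Control 2. The 3 monocyte markers in the table summed to 10936 to 20896 in Control and 12783 to 18987 in LOY, and 1 of them had a positive log2 difference. Csf1r, which codes for CD115, the marker gated out in the sort, lay between 5850 and 11687 in Control and between 9734 and 15221 in LOY, with an unadjusted p of 0.0358 and an adjusted p of 0.810 (limma). Of the 3 platelet markers tested, 2 had positive log2 differences (Ppbp 0.52 and Itga2b 2.36) and 1, Pf4, a negative one. Pf4 lay between 186.8 and 598.9 in Control and between 102.0 and 329.4 in LOY. Its unadjusted p was 0.0373 and its adjusted p 0.810 (limma). Whether these cell types or the share of genes at 0 had a part in the values below was not tested. In bulk libraries, fewer cells of a type and less RNA per cell cannot be told apart.

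Across the whole family, proteasome genes were expressed in both groups and none passed the test for a difference. Of the 46 members with a value of at least 10 normalized reads in at least 6 libraries, 0 had an adjusted p under 0.05 (limma on log2(value + 1), Benjamini-Hochberg over 9742 genes), where 0.0205% of all tested genes did. At an unadjusted p under 0.05 limma gave 2 members, Psma1 and Psmd9, against 6.04% of all tested genes; both were higher in LOY, as were 4.4% of all genes, and 0 were lower, where 1.63% of all genes were. edgeR on the recovered reads called 0 members and gave 1 at an unadjusted p under 0.05, against 2.95% of all genes. DESeq2 called 0, against 0.493% of all genes, and gave 2 at an unadjusted p under 0.05, Psma1 and Psmc3ip, against 5.55%. In no member did the 6 LOY libraries lie wholly apart from the 6 Control libraries, which 0.287% of tested genes did.

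Log2 differences (LOY minus Control) fitted by limma were above 0 for 34 of the 46 tested members and below 0 for 12. By edgeR 28 were above 0 and 18 below. The positive share was thus 73.9% with limma, where it was 60.9% among all tested genes, and 60.9% with edgeR, where it was 48.9% among all. The median member difference was 0.16 on the log2(value + 1) scale, beside a median of 0.14 over all tested genes. Members were measured with less spread than most genes: the median standard error was 0.30, against 0.56 over all tested genes. The 95% interval of the difference lay within a 2-fold change in either direction for 27 of 46 members, or 58.7%, against 30.7% of tested genes. For those 27 genes a change above 2-fold in either direction lay outside the interval. For the remaining genes the interval reached beyond 2-fold, and in all of them but Psmd9 it also held no change. The Psmd9 interval, not adjusted for the number of genes, ran from 0.17 to 5.06.

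The summed level of all 47 genes was 2691 ± 192 of each 1000000 normalized reads in Control (SD, n = 6) and 2847 ± 217 in LOY. Control libraries ranged from 2367 to 2891 with a median of 2727, and LOY libraries from 2573 to 3151 with a median of 2872. The groups overlapped over most of this range, and the lowest library was Control 2. The heat map of member levels shows every gene in the 12 libraries.

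**Figure D1:**
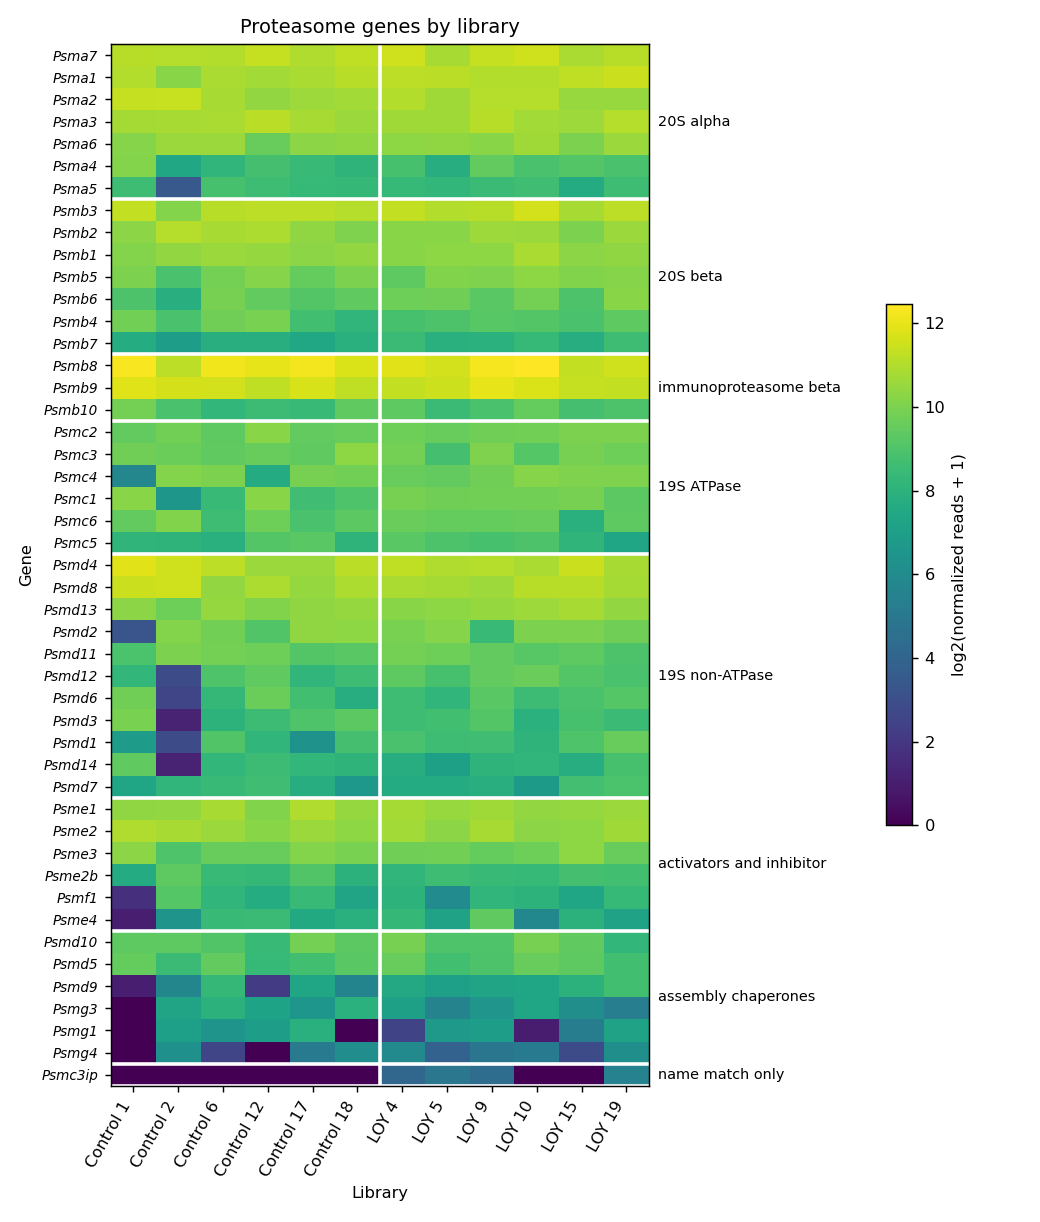
Level of the 47 genes (rows, grouped by role) in 6 Control and 6 LOY libraries (columns), coloured by log2(normalized reads + 1). Control 1 and Control 2 hold most of the dark cells, with 8 and 6 genes below 10 normalized reads, and no row separates the groups.

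Low values were gathered in a few libraries. Of the tested members, 7 were below 10 normalized reads in Control 1 (Psmd2, Psmd9, Psme4, Psmf1, Psmg1, Psmg3 and Psmg4) and 5 in Control 2 (Psmd1, Psmd3, Psmd6, Psmd12 and Psmd14). None was below 10 in both of these. The shares were 15.2% and 10.9%, beside 24.2% and 26.1% of all tested genes in the same libraries. Control 2 held the lowest of the 12 values for 16 members, or 34.8%, where it did so for 23.6% of all tested genes. The median coefficient of variation over tested members was 36.9% in Control and 22.0% in LOY, and 22.6% in the Control libraries 6, 17 and 18 alone. Over all tested genes the same figures were 58.0%, 38.5% and 34.9%.

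The 6 catalytic beta genes were examined first. The constitutive genes lie apart in the genome (GRCm38): Psmb5 at chr14:54614119-54618022 on the minus strand, Psmb6 at chr11:70525367-70527858 on the plus strand and Psmb7 at chr2:38588036-38644087 on the minus strand. Psmb8 and Psmb9 are neighbours within the MHC on chromosome 17, at chr17:34197721-34201454 (plus) and chr17:34181987-34187764 (minus), with Tap1 between them. Psmb10 lies at chr8:105935735-105938444 on the minus strand. Promoter windows of RefSeq (GRCm38.p6), 250 bases before to 50 after the annotated start, were present for 41 of the 47 genes, with none for Psmb7. They are shown for Psmb5, Psmb6, Psmb8 and Psmb9 because these carry the letters searched for and stand for both kinds of catalytic subunit. Capitals mark, in Psmb5 and Psmb6, the antioxidant response element TGACNNNGC. In Psmb8 they mark the interferon-gamma activated sequence TTCNNNGAA, and in Psmb9 the CCAAT box read on the other strand. The windows span chr14:54617946-54618245 (minus), chr11:70525107-70525406 (plus), chr17:34197945-34198244 (plus) and chr17:34187281-34187580 (minus), and each is printed 5′ to 3′ along its gene.
Psmb5: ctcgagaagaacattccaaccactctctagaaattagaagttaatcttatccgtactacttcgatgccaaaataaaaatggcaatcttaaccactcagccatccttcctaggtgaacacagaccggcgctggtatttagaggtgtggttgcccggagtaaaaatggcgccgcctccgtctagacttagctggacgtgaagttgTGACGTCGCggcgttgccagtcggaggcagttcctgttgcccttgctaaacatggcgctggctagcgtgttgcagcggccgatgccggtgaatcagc
Psmb6: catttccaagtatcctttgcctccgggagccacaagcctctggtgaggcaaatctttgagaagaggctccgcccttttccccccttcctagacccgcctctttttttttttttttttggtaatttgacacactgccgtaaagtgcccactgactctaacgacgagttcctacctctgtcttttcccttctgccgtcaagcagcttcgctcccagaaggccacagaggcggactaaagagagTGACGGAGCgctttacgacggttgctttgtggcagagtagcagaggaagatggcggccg
Psmb8: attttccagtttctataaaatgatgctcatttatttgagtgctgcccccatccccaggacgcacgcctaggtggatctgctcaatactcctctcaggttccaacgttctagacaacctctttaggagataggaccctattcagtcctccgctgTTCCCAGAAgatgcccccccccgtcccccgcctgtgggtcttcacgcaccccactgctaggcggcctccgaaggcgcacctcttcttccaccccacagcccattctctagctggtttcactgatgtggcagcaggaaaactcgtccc
Psmb9: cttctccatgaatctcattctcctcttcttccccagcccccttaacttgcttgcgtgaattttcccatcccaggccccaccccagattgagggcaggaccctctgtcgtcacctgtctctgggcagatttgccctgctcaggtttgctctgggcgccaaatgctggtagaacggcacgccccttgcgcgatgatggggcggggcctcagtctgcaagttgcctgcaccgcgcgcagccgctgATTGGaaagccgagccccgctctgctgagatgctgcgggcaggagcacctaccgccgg

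The match in Psmb5, TGACGTCGC, began 47 bases before the annotated start, and that in Psmb6, TGACGGAGC, began 9 bases before it. Psmb8 held TTCCCAGAA beginning 97 bases before its start. All motifs were searched on both strands, and a match describes letters only. The 41 members with a window had 44 windows in all. Member shares below count genes, while the shares over RefSeq count windows, so the 2 are not quite alike. The antioxidant response element was found in 6 of the 41 members with a window (Psmb5, Psmb6, Psmc6, Psmd9, Psmd12 and Psme4), or 14.6%, where 12.4% of 32851 RefSeq promoter windows held it. The interferon-gamma activated sequence was found in 3 (Psmb8, Psmd2 and Psmg1), or 7.32% against 8.30%. The core of the interferon-stimulated response element, GAAA and GAAA with any 2 bases between them, was found in 5 (Psmb3, Psmd4, Psmd9, Psme1 and Psmg4), or 12.2% against 3.44%, and in none of the 5 catalytic genes with a window. The CCAAT box was found in 14 of 41, or 34.1% against 37.4%. For Psmb8 and Psmb9 the RefSeq start lay 474 and 434 bases from the GENCODE start, so these windows depend on which start is used.

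Psmb8, the immunoproteasome subunit with the chymotrypsin-like site, ranged from 2398 to 5239 normalized reads in Control (median 4384) and from 2566 to 5610 in LOY (median 3457). Most of the LOY range lay inside that of Control, with 1 LOY library above it. LOY minus Control was -0.11 ± 0.23 (SE) on the log2 scale, with an adjusted p of 0.936 (limma, Benjamini-Hochberg), and -0.20 without Control 1, 2 and 12. Psmb9, the caspase-like position of the immunoproteasome, ranged from 2436 to 3742 in Control (median 3186) and from 2530 to 4014 in LOY (median 2743). The groups overlapped almost wholly, and the log2 difference was -0.03 ± 0.15 with an adjusted p of 0.977 (limma), and 0.02 without Control 1, 2 and 12. Its 95% interval, from -0.35 to 0.30, was the narrowest of the 6 genes. Psmb10, the trypsin-like position, ranged from 305.1 to 914.0 in Control (median 415.7) and from 360.6 to 738.4 in LOY (median 486.6). All LOY values lay within the span of Control, and the log2 difference was 0.11 ± 0.30 with an adjusted p of 0.946 (limma), and 0.29 without those 3 libraries.

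Psmb5 ranged from 474.0 to 1170 normalized reads in Control (median 973.8) and from 666.4 to 1277 in LOY (median 1097), with 2 LOY libraries above every Control library. On the log2 scale the difference was 0.29 ± 0.23, with an adjusted p of 0.850 (limma), and 0.12 without Control 2. Psmb6 spanned 231.9 to 968.6 in Control (median 625.7) and 500.1 to 1200 in LOY (median 847.7), with 1 LOY library above all Control values. Its log2 difference was 0.50 ± 0.33, with an adjusted p of 0.826 (limma). It was 0.24 without Control 2, 0.13 without Control 1, 2 and 12, and 0.01 in a fit with each library's share of genes at 0 as a covariate. Psmb7 came nearest to a separation of the groups: Control spanned 125.5 to 235.5 (median 215.3) and LOY 214.3 to 381.2 (median 282.5), so that 5 of 6 LOY libraries lay above the highest Control library. The log2 difference was 0.56 ± 0.29, and neither the unadjusted p of 0.0755 nor the adjusted p of 0.810 (limma) passed the threshold. Without Control 1, 2 and 12 the difference was 0.45, and with the covariate it was 0.40. In the authors' deposited table the log2 fold change of Psmb7 was 0.56, with a p of 0.0507 and an adjusted p of 0.939. Some reads of Psmb7 could belong to Nek6, which shares 405 exon bases with it on the opposite strand.

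**Figure D2:**
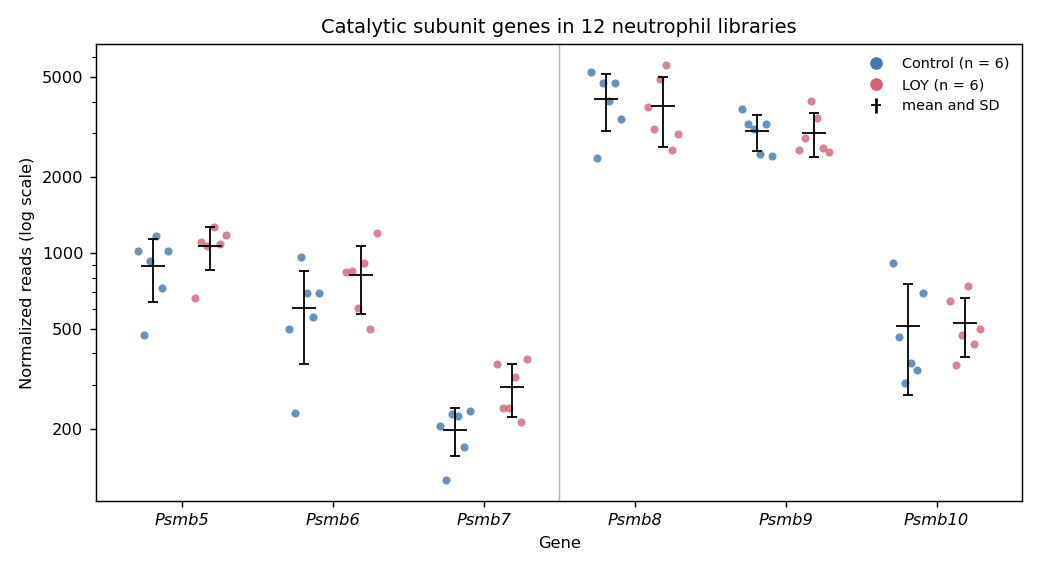
Normalized reads (log axis) of the 6 catalytic beta genes in each library, with Control (n = 6) and LOY (n = 6) side by side; black bars give the mean and SD. The LOY libraries overlap Control for all 6 genes, and 5 of 6 LOY points of Psmb7 lie above the highest Control point of 235.5.

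Levels of the catalytic genes were set side by side after division by exon length. Per kilobase of the union of annotated exons, and over all 12 libraries, the mean level was 1172 ± 320 normalized reads for Psmb8 (SD, n = 12), 827.2 ± 145 for Psmb9 and 305.2 ± 110 for Psmb10. On the same scale it was 1087 ± 265 for Psmb5, 381.1 ± 138 for Psmb6 and 72.0 ± 21.8 for Psmb7. Psmb8 ranked 2 among the 47 genes and Psmb9 ranked 7, while Psmb7 ranked 39 and was the lowest beta subunit. By the longest transcript Psmb8 ranked 1, at 2078 per kilobase, and Psmb9 ranked 10.

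The 3 pairs of exchangeable subunits differed in balance, and the size of each ratio depended on the length used. Psmb10 stood 4.18-fold above Psmb7 per kilobase (geometric mean over 12 libraries), 4.53-fold by the longest transcript and 2.11-fold by coding length, and was above it in all 12 libraries each time. Psmb9 stood 2.30-fold above Psmb6 by the union of exons, 1.51-fold by the longest transcript and 4.90-fold by coding length. Psmb8 stood 1.08-fold above Psmb5 by the union of exons, with 7 of 12 libraries above 1, but 1.91-fold by the longest transcript and 3.87-fold by coding length. The spread among these lengths was widest for Psmb8, whose union of exons is 3381 bases, whose longest transcript has 1907, and which shares 498 exon bases with Gm20496 on the opposite strand. The 3 immunoproteasome genes summed stood 1.52-fold above the 3 constitutive genes summed, against 1.87-fold and 4.05-fold by the other lengths. By the union of exons 11 of 12 libraries had the immunoproteasome sum above the constitutive sum, the exception being LOY 19, and by the longest transcript all 12 did.

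The log2 ratio of the sums was 0.82 ± 0.47 in Control (SD, n = 6) and 0.39 ± 0.40 in LOY, per kilobase of exon. Control libraries ranged from 0.26 to 1.44 with a median of 0.84, and LOY libraries from -0.15 to 0.84 with a median of 0.38. The groups overlapped: Control 1, 2 and 17 lay above every LOY library, and LOY 5, 15 and 19 lay below every Control library. The difference of -0.42 was close to the pooled SD of 0.43, and no test was made of it because the genes were chosen with their values known. It was -0.39 for Psmb8 over Psmb5, -0.52 for Psmb9 over Psmb6 and -0.45 for Psmb10 over Psmb7, each within its pooled SD of 0.46, 0.72 and 0.53. Without Control 1, 2 and 12 the difference of the sums was -0.31, that of Psmb8 over Psmb5 was -0.44, that of Psmb9 over Psmb6 was -0.11 and that of Psmb10 over Psmb7 was -0.16. The immunoproteasome share of the 6 catalytic genes was 63.5% ± 7.38 in Control and 56.7% ± 6.73 in LOY.

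**Figure D3:**
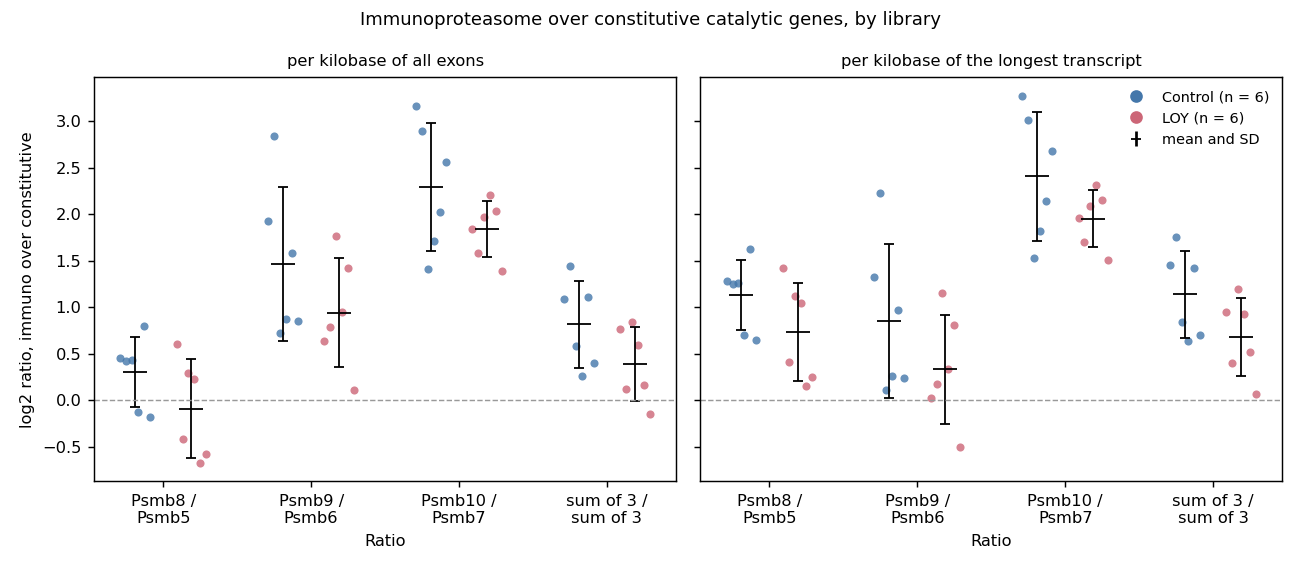
Log2 ratio of immunoproteasome to constitutive gene, per kilobase of exon, for the 3 pairs and for the sums, in each library; black bars give the group mean and SD, the left panel uses the union of exons and the right panel the longest transcript. For the sums in the left panel, Control libraries lie between 0.26 and 1.44 and LOY libraries between -0.15 and 0.84, so the groups overlap.

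The alpha subunits, which form the outer rings and the gate of the core, had a median of 515.2 normalized reads per kilobase over 7 genes. By the union of exons Psma6 was the highest at 1054 per kilobase and Psma4 the lowest at 193.3; by the longest transcript Psma1 was the highest at 1727 and Psma5 the lowest at 258.2. Of the 7, 0 had an adjusted p under 0.05, 5 log2 differences were positive and 2 negative. Psma1 had the smallest p: it ranged from 1202 to 2199 normalized reads in Control (median 1876) and from 2062 to 2783 in LOY (median 2316). Thus 4 of 6 LOY libraries lay above every Control library. The log2 difference was 0.38 ± 0.15, with an unadjusted p of 0.0246 and an adjusted p of 0.794 (limma). It was 0.23 without Control 1, 2 and 12, and 0.20 in a fit that took each library's share of genes at 0 into account. Psma2, Psma3, Psma6 and Psma7 had log2 differences between -0.08 and 0.11. In Psma5 a single library, Control 2, lay at 10.2 normalized reads, where the median of Control was 352.1.

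Among the 4 beta subunits with no cutting site, Psmb2 had the highest level of all 47 genes, 1223 normalized reads per kilobase by the union of exons, and ranked 3 by the longest transcript. Psmb3 followed at 976.0 per kilobase, with Psmb4 at 305.6 and Psmb1 at 296.9, an order that was the other way round for the last pair by the longest transcript. Psmb1 varied little between libraries: it ranged from 1148 to 1514 normalized reads in Control (median 1371) and from 1197 to 1898 in LOY (median 1312). Its log2 difference was 0.04 ± 0.14, and LOY 10 lay above the span of Control while the other LOY libraries lay within it. The other 3 had log2 differences of -0.21 for Psmb2, 0.18 for Psmb3 and -0.15 for Psmb4, which were -0.04, 0.06 and 0.17 without Control 1, 2 and 12.

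The 6 ATPases of the 19S cap, which unfold substrates and feed them into the core, had levels between 170.7 (Psmc2) and 387.8 (Psmc1) normalized reads per kilobase of the union of exons, a narrower span than that of the core subunits. Of these 6, 0 passed the threshold, 4 log2 differences were positive and 2 negative. Psmc1 had the smallest p in this class and ranged from 94.8 to 1225 normalized reads in Control (median 457.9) and from 636.2 to 957.3 in LOY (median 894.4). All LOY libraries lay inside the wide range of Control. The log2 difference was 0.89 ± 0.52 with an adjusted p of 0.823 (limma), 0.47 with edgeR and 0.43 without Control 2. Without Control 1, 2 and 12 it was 1.06, with an adjusted p of 0.468. The difference of Psmc4 was 0.96 ± 0.67 with limma, 0.41 with edgeR, 0.12 with the covariate and -0.06 without those 3 libraries; its lowest library had 53.8 normalized reads beside a Control median of 927.3.

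The 11 non-ATPase subunits of the cap hold its scaffold, ubiquitin receptors and deubiquitinase. Psmd4, a ubiquitin receptor, was the highest at 820.2 normalized reads per kilobase, and Psmd1, a large scaffold subunit of the base, the lowest at 48.8. Of the 11, 0 passed the threshold, 8 log2 differences were positive and 3 negative with limma, and 6 were positive and 5 negative with edgeR. Psmd1 ranged from 6.41 to 538.7 normalized reads in Control (median 204.3) and from 274.8 to 742.5 in LOY (median 432.2). Control 1, 2 and 17 lay below every LOY library, and LOY 19 lay above all of Control. Its log2 difference was 1.75 ± 0.88 with an adjusted p of 0.810 (limma), 0.93 with edgeR and 0.70 without Control 1, 2 and 12. Psmd2, the other large scaffold subunit, had a log2 difference of 0.89 ± 1.05, which became -0.46 without those 3 libraries. Psmd14, the deubiquitinase of the cap, had 0.67 ± 1.16 with limma, -0.27 with edgeR and -0.24 without those libraries. The more evenly measured Psmd4, Psmd8, Psmd11 and Psmd13 had log2 differences of -0.10, -0.08, -0.07 and 0.25. Without Control 1, 2 and 12 these were 0.07, 0.26, -0.01 and 0.04, so that Psmd4 and Psmd8 turned sign.

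**Figure D4:**
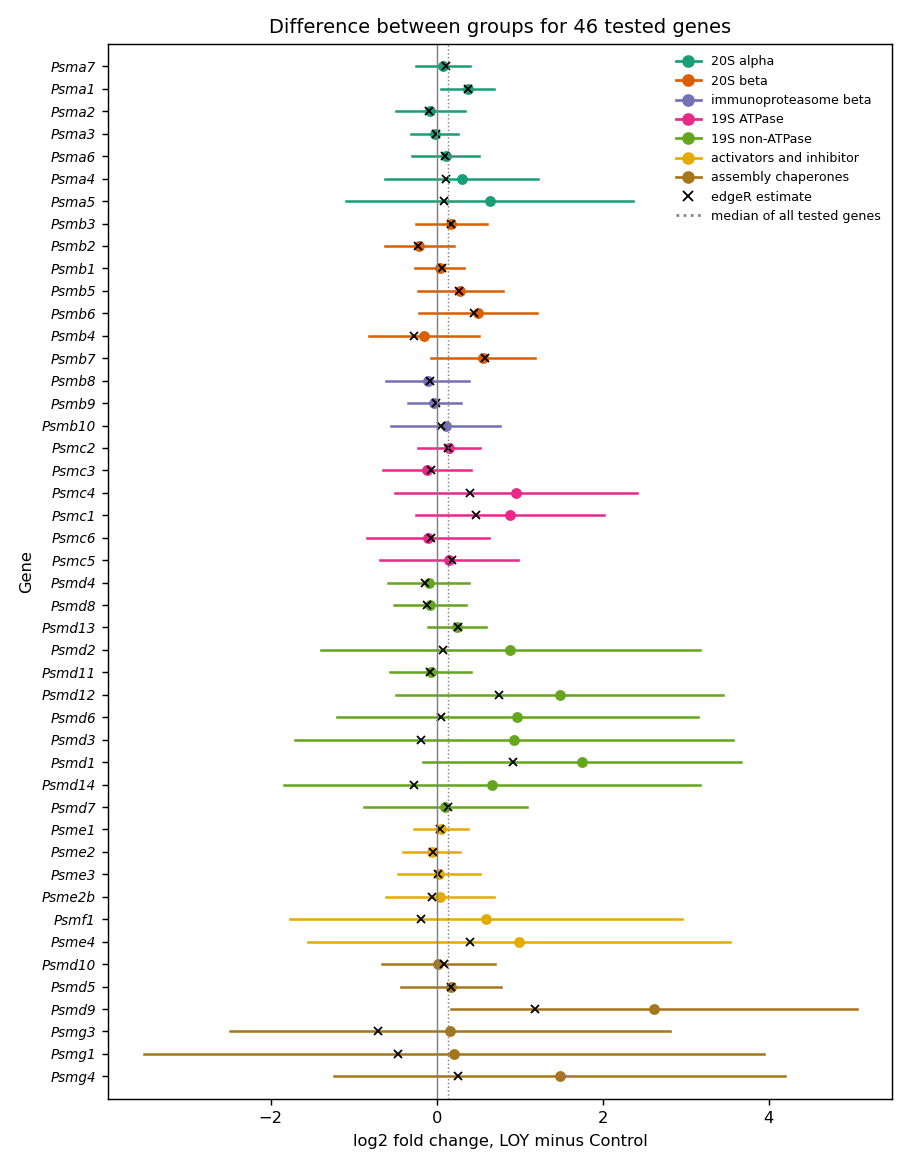
Log2 difference, LOY minus Control, of the 46 tested genes with its 95% interval (limma on log2(value + 1), coloured by role), the edgeR estimate as a cross and the median of all tested genes as a dotted line. The widest intervals belong to genes with values near 0 in Control 1 or Control 2, such as Psmg1 and Psmd9, and limma and edgeR estimates part there. Psmg1 was also at 0 in Control 18, at 4.82 in LOY 4 and at 0.93 in LOY 10.

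Activators that open the core without ubiquitin were led by Psme2 and Psme1, the subunits of the interferon-inducible PA28 ring. Psme2 stood at 864.6 normalized reads per kilobase and Psme1 at 692.4, against 304.2 for Psme3, which forms a nuclear ring of its own, and 27.8 for Psme4, a large single-chain activator. Of Psme1, Psme2, Psme3 and Psme4 summed per kilobase, Psme1 and Psme2 made up 82.7% ± 4.11 in Control (SD, n = 6). In LOY their share was 82.0% ± 3.91. Psme2b, at 448.0 per kilobase over all libraries, was left out of this share. Psme1 ranged from 1085 to 2012 normalized reads in Control (median 1413) and from 1391 to 1738 in LOY (median 1527). The LOY libraries all lay within Control, and the log2 difference was 0.05 ± 0.15. For Psme2 it was -0.06 ± 0.16, and reads of Psme2 and Psme2b, a near copy, are uncertain because the counting could split them. Psme4 had the smallest p of the class, with a log2 difference of 0.99 ± 1.17 and an adjusted p of 0.877 (limma). It was 0.40 with edgeR, -0.32 without Control 1, 2 and 12 and -0.91 with the covariate, so its direction turned. Psmf1, the inhibitor of the core, had 0.59 ± 1.09 with limma, -0.19 with edgeR and -0.30 without those 3 libraries.

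Assembly chaperones were the least expressed class of subunits or factors, with a median of 60.8 normalized reads per kilobase of the union of exons over 6 genes and of 69.7 by the longest transcript. Psmd10 was the highest at 434.9 and Psmd9 the lowest at 21.5 by the union of exons, while by the longest transcript Psmg3 was the lowest at 49.8. Psmg1, Psmg3 and Psmg4 help to build the alpha ring, and Psmd5, Psmd9 and Psmd10 guide the ATPases into the base. Psmd9 ranged from 1.08 to 311.1 normalized reads in Control (median 49.7) and from 129.5 to 413.2 in LOY (median 174.9). The low values were Control 1 and Control 12, and 1 LOY library lay above all of Control. The log2 difference was 2.62 ± 1.13, with an unadjusted p of 0.0379 and an adjusted p of 0.810 (limma). It was 1.19 with edgeR and 0.58 without Control 1, 2 and 12. Some reads of Psmd9 could belong to Gm26745, which shares 1849 exon bases with it on the opposite strand. For Psmg1 and Psmg3 limma gave 0.21 ± 1.72 and 0.16 ± 1.22, while edgeR gave -0.47 and -0.71, and Psmg3 stood at -1.18 without those 3 libraries. The meiotic factor Psmc3ip did not pass the filter: it was listed at 0 in all 6 Control libraries and in LOY 10 and LOY 15, and at 16.4, 20.9, 29.5 and 44.9 normalized reads in the other LOY libraries. It shares 385 exon bases with Mlx on the opposite strand.

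Split by mean normalized reads, with no division by length, since this follows the reads behind each value, the 23 members at or above the median member had 13 positive and 10 negative log2 differences with a median of 0.04 and a median standard error of 0.19. The 23 below it had 21 positive and 2 negative, with a median of 0.50 and a median standard error of 0.80. With edgeR the medians of the same genes were 0.04 and 0.09. The median of the lower members was thus further from 0 with limma than with edgeR. Over all tested genes, whatever their level, limma gave 60.9% positive and a median of 0.14. Tested genes of like low level were not counted apart.

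Other genes of the ubiquitin-proteasome pathway were taken from a list of 31, of which 30 were in the table and 29 were tested. It holds ubiquitin genes, shuttle factors, regulators of proteasome gene transcription and the activating enzymes, and Paaf1 was not analysed here. Of the 29, 0 had an adjusted p under 0.05 (limma) and 0 had an unadjusted p under 0.05, where 6.04% of all tested genes did; 17 log2 differences were positive and 12 negative, with a median of 0.11 beside the 0.14 of all tested genes. Nfe2l2, a transcription factor known to act on antioxidant response elements, had the smallest p: it ranged from 4584 to 6353 normalized reads in Control (median 5587) and from 5786 to 7594 in LOY (median 6268). The ranges overlapped, and the log2 difference was 0.20 ± 0.10 with an adjusted p of 0.810 (limma). Ddi2, the protease that processes Nfe2l1, had a log2 difference of -1.05 ± 0.58 with an adjusted p of 0.810 (limma).

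Partners of the immunoproteasome in antigen presentation were taken from a list of 14, all in the table and 13 tested. Of the 13, 0 had an adjusted p under 0.05 (limma), 1 had an unadjusted p under 0.05, where 6.04% of all tested genes did, and 7 log2 differences were positive and 6 negative, where 60.9% of all tested genes were positive. That gene was Tap1, a subunit of the peptide transporter, which ranged from 775.3 to 2194 normalized reads in Control (median 1835) and from 2062 to 3334 in LOY (median 2371). Its log2 difference was 0.72 ± 0.27 with an unadjusted p of 0.0218 and an adjusted p of 0.785 (limma), and it was 0.34 without Control 1, 2 and 12. Tap2 and Tapbp followed by p, with 0.37 ± 0.19 and 0.16 ± 0.09. For Tap2 it was 0.01 without those 3 libraries and -0.05 with the covariate for the share of genes at 0. By RefSeq, Tap1 and Psmb9 start 226 bases apart on opposite strands. By GENCODE, whose starts differ, they share 212 exon bases, so unstranded reads in that stretch cannot be told apart. Psmb9, on the other side of this shared start region, had the difference of -0.03 given above, and whether the difference of Tap1 and that of Psmb9 are unequal was not tested.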

How the data were processed

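The authors deposited 1 table with a normalized signal for each gene and library, beside the authors' log2 fold changes and p-values per the file headers, which do not name the unit of the signal. Upstream, per the submitters' processing notes, stand STAR 2.5.2b and featureCounts of Subread 1.5.2, after bcl2fastq 2.17 and Trimmomatic 0.36; GRCm38 (mm10) is the build named. In every library all values were whole multiples of 1 step within 0.02 reads, and division by it gave the recovered reads; the step of Control 6 was 1.01. The main test was limma 3.58.1 (R 4.3.3, trended and robust) on log2(value + 1), for the 9742 genes that reached 10 in 6 or more of the 12 libraries, with Benjamini-Hochberg adjustment at 0.05. Fold changes on this scale understate low genes, and exceed the fold of the means where 1 group holds values near 0. Recovered reads were also fitted with DESeq2 1.42.0 and with the quasi-likelihood test of edgeR 4.0.16. Further alternatives were quantile normalization, other filters and pseudocounts, a covariate for the share of genes at 0, and libraries left out. The fits were tested on simulated data. GENCODE vM21 (GRCm38) held 11472 of the identifiers and gave coordinates and the 3 lengths; coding length was added after seeing the data. Members, lists, and the rule for named genes (per role the highest, the lowest and the smallest p, all members at an unadjusted p under 0.05, and 3 per pathway list by p) were chosen with earlier results of these data known. Differences between ratios, and shares, were described without a test. A gene that the rule would name is not reported here.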

Additional observations from a re-analysis of the deposited data

Results flagged for a closer look

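In 10 of 94 groups of 6 libraries, 1 library stood far from the other 5, with a gap to its neighbour above Dixon's 95% critical value; chance flags about 1 in 20 groups. Psma4 had its highest Control value in Control 1, at 1135 normalized reads. In Control 2, Psma5 was lowest at 10.2 and Psmb3 lowest at 1126, and in Control 18 Psmc3 was highest at 1275. Among LOY libraries, Psmb1 was highest in LOY 10 at 1898, and Psmb5 was lowest in LOY 4 at 666.4. Psmc1 was lowest in LOY 19 at 636.2, and Psmd2 lowest in LOY 9 at 334.2. In LOY 15, Psmc6 was lowest at 235.8 and Psme3 highest at 1277 normalized reads.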

How the results depend on the processing

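No proteasome gene had an adjusted p under 0.05 under any alternative run, and the lowest adjusted p of a member was 0.468 (Psmc1, limma without Control 1, 2 and 12). Over all tested genes the count past the threshold was 2 with limma, 0 with edgeR, 54 with DESeq2, 0 after quantile normalization, 0 with a mean of 50 or more, 0 with a covariate for the share of genes at 0 and 0 without Control 1, 2 and 12. Leaving out 1 library at a time, it ranged from 0 to 15, the highest without Control 6; it was 9 without Control 18, 6 without Control 17, 5 without Control 12, 1 without Control 1 and 0 without Control 2 or without any of LOY 5, 9, 10, 15 and 19. The cause was not tested. Signs of the members' uncalled differences were less stable: 21 of 46 turned without Control 1, 2 and 12, 19 with the covariate, 6 with edgeR and 7 with DESeq2. The difference of the log2 ratio of the sums stayed between -0.53 and -0.30 when 1 library was left out. No paired analysis was possible because the groups share no replicate numbers. Depth is known only through the recovered reads, and these counts carry no molecular identifiers.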
